A study of Rattus norvegicus with 6 samples.

Results

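The amygdala RNA-seq of male rats was examined here for the serotonin receptors, a family of 10 genes (Htr1a, Htr1b, Htr1d, Htr1f, Htr2a, Htr2c, Htr3a, Htr4, Htr5a and Htr7) that were chosen by their gene symbols out of 38445 annotated genes. Adult wild-type Sprague Dawley rats received an intraperitoneal injection of saline (control) or of ethanol at 1 g/kg, and the amygdala was taken 1 h later. RNA from 2 rats was combined for each library, so that the 6 rats of a group gave 3 libraries and the RNA-seq held 6 libraries in all. The comparison asks which transcripts of the amygdala differ after a single low dose of ethanol. Because every library mixes 2 animals, its value is already an average of them, and the spread between libraries is not the spread between rats.

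Serotonin reaches the amygdala in the axons of raphe neurons, and its receptors there take part in the control of anxiety and fear. The receptors of the Htr1 and Htr5 groups couple to inhibitory Gi and Go proteins, those of the Htr2 group to Gq and phospholipase C, and those of the Htr4, Htr6 and Htr7 groups to Gs and adenylyl cyclase, while Htr3a encodes a subunit of a ligand-gated cation channel. Several of these receptors have been studied as sites through which ethanol alters behavior, and the channel formed by Htr3a is directly modulated by ethanol.

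The deposited values were raw counts, that is reads assigned to the exons of each gene, with 62576504 to 70755739 counts per library. Levels are given as CPM, counts divided by the library total to a common scale and adjusted between libraries by the TMM method of edgeR, with factors from 0.976 to 1.01. Without the TMM adjustment 3 counts corresponded to 0.0424 to 0.0479 CPM. All 7 markers of pallial glutamatergic neurons and all 7 of striatal and central amygdala type GABA neurons, the main neuron classes of the amygdala, were detected. The libraries differed in markers of tissue around it. The summed level of 13 choroid plexus genes, of which 12 were above 3 counts and Otx2 was at 0 to 1 counts, was 551, 1202 and 933 CPM in control libraries 1, 2 and 3 and 14.4, 16.0 and 514 CPM in ethanol libraries 1, 2 and 3. The sums of ependymal genes (52.1 to 64.4 CPM in controls, 37.7 to 56.9 after ethanol) and of dentate gyrus genes (33.9 to 60.9 and 32.4 to 53.2 CPM) overlapped, and that of hypothalamus and thalamus genes was 128 to 246 and 118 to 481 CPM. All 5 ependymal genes tested nevertheless had a negative log2 fold change, with a median of -0.48. Of these, 2 had every ethanol library below every control library, as did 5.19% of all genes tested. Ethanol library 3 held 206.5 CPM of the hypothalamic peptide gene Pmch against 2.12 to 14.5 CPM in the others. In bulk tissue, fewer cells of a type and less RNA per cell cannot be told apart.

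Of the 10 receptor genes, 9 were expressed in all 6 libraries and none of these differed between ethanol and control by edgeR's quasi-likelihood test (Benjamini-Hochberg adjusted p = 0.9999 for each of the 9, n = 3 libraries per group). The threshold was the study's false discovery rate of 0.2, at which 0 of the 18141 genes tested, or 0%, were called. The paper's own analysis did report differing genes at that rate, and it measured selected ones by qPCR. The DESeq2 Wald test called 75 and the edgeR likelihood ratio test 77 of all genes, limma-voom called 0, and none of these tools called a receptor. At an unadjusted p below 0.05 there was 1 receptor, Htr2c, which was lower after ethanol, where 2.57% of all genes tested were lower, 1.57% were higher and 4.15% passed in either direction. This count was 0 without control library 3 or without ethanol library 2 and 2 without control library 1 or 2, and over all genes the count rose from 752 to 1629 without ethanol library 3. Of the 9 receptors, 6 had a positive and 3 a negative log2 fold change, with a median of 0.08 against a median of 0.0064 for all genes tested. The groups overlapped for all 9 receptors, whereas 5.19% of all genes had every ethanol library below every control library, 3.66% had every ethanol library above, and these made up 8.85% together.

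Levels between genes were compared as CPM per kb of exon, averaged over the 6 libraries. Htr2c stood at 46.1 CPM per kb with a range from 37.9 to 52.3, above every other receptor in each of the 6 libraries. A middle group followed, with Htr1a at 5.87 (4.81 to 7.48), Htr5a at 5.43 (4.74 to 6.08), Htr2a at 5.17 (4.23 to 5.94), Htr3a at 5.06 (4.69 to 5.59) and Htr1b at 3.94 (3.34 to 4.47) CPM per kb. Neighbours from Htr1a to Htr3a did not differ beyond their spread, since each range overlapped the next, while Htr1b lay below Htr3a in 6 of 6 libraries. Htr4 at 1.10 (0.900 to 1.41) and Htr1f at 1.09 (0.821 to 1.46) CPM per kb overlapped, and Htr1d, at 0.385 CPM per kb and 0.160 to 0.601, lay below both in every library. The annotated exon lengths that enter these levels run from 1269 bp for Htr1a to 5693 bp for Htr4, and without the length correction only 4 of the 9 genes kept their place in the order.

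**Figure D1:**
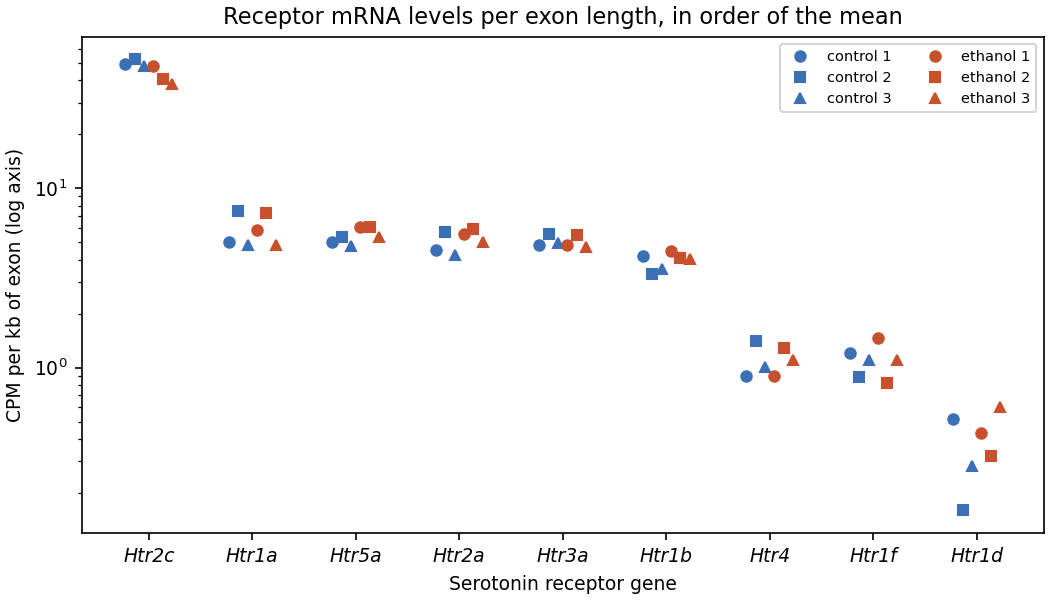
Level of each serotonin receptor gene in CPM per kb of exon on a log axis, with 1 point per library (control in blue, ethanol in orange, with the replicate number by shape) and the genes in order of their mean. Htr2c lies between 37.9 and 52.3 CPM per kb, the next 5 genes lie between 3.34 and 7.48, and Htr1d is lowest at 0.160 to 0.601.

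The plot of receptor levels by exon length shows 3 tiers, with Htr2c alone at the top, 5 genes close together below it, and Htr4, Htr1f and Htr1d at the bottom. The colors of the groups mix within each column except at Htr2c and Htr5a, where a single ethanol library lies inside the control range.

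Promoter sequences of 300 bases, from 250 before to 50 after the annotated start, were at hand for 6 of the 10 receptor genes in the RefSeq annotation of build GRCr8. The promoters of Htr2c, Htr5a and Htr1d are shown because Htr2c and Htr5a had the smallest p of the family and Htr1d varied most between libraries. The Htr2c promoter lies at chrX:115452940-115453239 on the plus strand, the Htr5a promoter at chr4:8188436-8188735 on the minus strand and the Htr1d promoter at chr5:153939485-153939784 on the plus strand. Each is written from 5′ to 3′, with capitals for matches on either strand to TATAAA (the box of the core promoter), ACGTG (core of the hypoxia response element), AGAACA (an arm of the glucocorticoid response element) or TGACG (an arm of the cyclic AMP response element).
Htr2c: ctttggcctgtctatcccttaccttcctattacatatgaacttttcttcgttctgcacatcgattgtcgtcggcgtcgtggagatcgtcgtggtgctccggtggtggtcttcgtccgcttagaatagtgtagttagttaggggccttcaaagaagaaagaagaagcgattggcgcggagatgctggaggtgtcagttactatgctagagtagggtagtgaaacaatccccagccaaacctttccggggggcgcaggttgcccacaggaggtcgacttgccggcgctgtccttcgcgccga
Htr5a: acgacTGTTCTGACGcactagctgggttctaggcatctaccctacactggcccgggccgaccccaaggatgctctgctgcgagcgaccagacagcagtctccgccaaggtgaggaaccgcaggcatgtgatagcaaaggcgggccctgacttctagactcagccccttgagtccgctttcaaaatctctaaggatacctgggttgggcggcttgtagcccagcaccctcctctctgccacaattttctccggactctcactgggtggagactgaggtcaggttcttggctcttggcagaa
Htr1d: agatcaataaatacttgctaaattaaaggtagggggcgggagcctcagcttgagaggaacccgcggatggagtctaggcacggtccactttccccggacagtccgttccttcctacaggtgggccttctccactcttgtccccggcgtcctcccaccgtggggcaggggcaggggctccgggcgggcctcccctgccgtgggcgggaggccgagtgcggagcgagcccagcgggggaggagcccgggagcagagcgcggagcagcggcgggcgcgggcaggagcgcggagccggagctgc
The Htr2c and Htr1d promoters held none of these letters, and the Htr5a promoter held AGAACA on the opposite strand from position -245 and TGACG from position -240, which share a base. Of the promoters not shown, that of Htr1f held AGAACA from positions -70 and -53. That of Htr7 held ACGTG from -49 and TGACG from -79, and that of Htr1b held no match. These motifs are common, with TATAAA in 14.2%, ACGTG in 19.3%, AGAACA in 20.7% and TGACG in 21.2% of 33469 rat promoters of the same length, and a match describes letters and not a bound site. The promoters differed in base composition. Htr2c had a GC content of 53.7% with 22 CpG sites, Htr5a 58% with 12 and Htr1d 69.3% with 27, whereas Htr1f, also in the low tier, had 26.3% and 0, against medians of 51.7% and 7 over all promoters.

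Htr2c encodes a Gq-coupled receptor whose pre-mRNA is edited by adenosine deaminases, and it is the serotonin receptor best known from the choroid plexus as well as from neurons. The gene (NCBI gene 25187) spans chrX:118084520-118318040 in Rnor_6.0 on the plus strand, with 8 exon blocks and 4752 bp of exon. The level was 235.6, 248.7 and 227.7 CPM in control libraries 1, 2 and 3 and 228.6, 193.4 and 180.0 CPM in ethanol libraries 1, 2 and 3. All control libraries were close together, ethanol library 1 lay just inside their range, and the other ethanol libraries lay below it. Mean Htr2c was 237 ± 10.6 CPM for saline and 201 ± 25.1 CPM for ethanol (SD over 3 libraries each), which corresponds to a log2 fold change of -0.24 (SE 0.10, 95% interval -0.46 to -0.02). The unadjusted p of 0.0363 ranked 573 among all genes tested and gave an adjusted p of 0.9999 in edgeR's quasi-likelihood test, and the exact permutation test, which cannot go below 0.1 with 3 against 3 libraries, gave p = 0.2 (2-sided).

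The overlap of the Htr2c groups rested on the scaling. With library size alone, the level was 238, 250 and 231 CPM in controls and 225, 189 and 182 CPM after ethanol, so that all ethanol libraries were below all controls, as were those of 7.04% of all genes under that scaling. The choroid plexus sum was also lower after ethanol. All 12 tested genes of that list had a negative log2 fold change, but with TMM scaling only 4 of the 13 genes had separate groups. Control library 2, with 1202 CPM of choroid plexus genes, had the highest Htr2c level of all libraries. Ethanol library 1, with 14.4 CPM, had the highest Htr2c level of its group, and ethanol library 3, with 514 CPM, had the lowest. The transthyretin gene Ttr made up most of the sum in the controls and in ethanol library 3. It was at 461, 995 and 817 CPM in control libraries 1, 2 and 3 and at 5.42, 4.34 and 425 CPM in ethanol libraries 1, 2 and 3. The part of choroid plexus tissue in the Htr2c difference was not tested. The span of Htr2c also holds 5 microRNA hairpin genes on the same strand, which had 0 to 4 counts per library and share no exon bases with it.

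Htr2a is the other Gq-coupled member and a main target of atypical antipsychotics and of hallucinogens. The gene (NCBI gene 29595) lies at chr15:56666152-56732469 on the plus strand, with 3 exon blocks and 1566 bp of exon. It was at 7.06, 8.98 and 6.62 CPM in controls and 8.75, 9.31 and 7.88 CPM after ethanol. Control library 2 lay among the ethanol libraries, and the groups overlapped. The log2 fold change was 0.19 (SE 0.14), with an interval from -0.12 to 0.51, and p was 0.193 before adjustment in edgeR's test. Htr2a and Htr2c thus had estimates of opposite sign, and a test of the difference between these genes was not made.

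The Gi/Go-coupled receptors included Htr1a, which acts both as an autoreceptor on raphe neurons and as a receptor on neurons of the target regions. Htr1a (NCBI gene 24473) is a single-exon gene at chr2:36246628-36247896 on the plus strand and was at 6.36, 9.49 and 6.10 CPM in controls and 7.43, 9.18 and 6.13 CPM after ethanol. The libraries numbered 2 were highest in both groups, and the groups covered the same range. The log2 fold change was 0.05 (SE 0.21, 95% interval -0.44 to 0.53), with an unadjusted p of 0.819 in edgeR's test.

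Htr1b is the autoreceptor of serotonin axon terminals and also sits on other terminals. The gene (NCBI gene 25075), annotated at chr8:89113984-89130830 on the minus strand with 2 exon blocks, was at 8.96, 7.11 and 7.55 CPM in controls and 9.50, 8.64 and 8.57 CPM after ethanol. Control library 1 lay within the ethanol range and the other controls lay below it. The log2 fold change was 0.18 (SE 0.11, interval -0.08 to 0.44), with an unadjusted p of 0.156 in edgeR's test.

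Htr1d, another presynaptic receptor of this group and a target of triptans, is annotated at chr5:154780958-154801505 on the plus strand (NCBI gene 25323), with 4 exon blocks and 3251 bp of exon. It was the most variable member, with 37 to 110 counts in the controls and 67 to 136 after ethanol, that is 1.68, 0.521 and 0.915 CPM in controls and 1.40, 1.04 and 1.95 CPM after ethanol. Control library 2 was lowest and ethanol library 3 highest, and the other libraries of both groups lay between them. The highest library held 3.75 times the level of its lowest, where the median gene with a mean of 1 to 20 CPM differed by 1.34 times. Htr1d lay near the low end of that band, at a mean of 1.25 CPM and 83 counts. Counting error alone gives a coefficient of variation of 11.0% at that count. The observed coefficient of variation was 56.8% among controls and 31.3% among ethanol libraries. With this spread the log2 fold change of 0.50 had an SE of 0.41 and an interval from -0.46 to 1.46, or 0.729 to 2.75 as a ratio of ethanol to control.

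Htr1f, a further triptan target of the same group, is a single-exon gene at chr11:1982113-1983513 on the minus strand (NCBI gene 60448). It was at 1.68, 1.24 and 1.55 CPM in controls and 2.04, 1.15 and 1.54 CPM after ethanol. The groups overlapped fully and the log2 fold change was 0.08 (SE 0.23, interval -0.46 to 0.63), with an unadjusted p of 0.732.

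Htr5a, a Gi/Go-coupled receptor of the forebrain, is at chr4:199916-209599 on the plus strand of Rnor_6.0 (NCBI gene 25689), inside the span of Kmt2c but with no exon bases in common with it. It was at 9.86, 10.5 and 9.27 CPM in controls and 11.9, 11.9 and 10.4 CPM after ethanol. Ethanol library 3 lay just below control library 2, and the others were separate. The means of 9.87 ± 0.601 and 11.4 ± 0.848 CPM (SD, n = 3 each) gave a log2 fold change of 0.21 (SE 0.09, interval -0.01 to 0.42), with an edgeR p of 0.0605, an adjusted p of 0.9999 and an exact permutation p of 0.2. With library size alone every ethanol library of Htr5a was above every control library, at 11.7, 11.6 and 10.53 against 9.97, 10.52 and 9.40 CPM, a pattern that 2.29% of all genes showed under that scaling.

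Htr3a, the subunit that every channel of this type needs, lies at chr8:53211436-53223878 on the minus strand (NCBI gene 79246) with 9 exon blocks. It had the smallest spread of the family and was at 10.2, 11.7 and 10.4 CPM in controls and 10.1, 11.4 and 9.82 CPM after ethanol. The libraries numbered 2 were again highest in both groups. The log2 fold change was -0.04 (SE 0.10), with an interval from -0.27 to 0.19 that bounds the difference more closely than for any Gi/Go-coupled member except Htr5a. Htr3a marks a class of cortical and amygdalar interneurons, and the summed level of 8 markers of that class was 446, 453 and 433 CPM in controls and 472, 485 and 458 CPM after ethanol. That sum was higher in every ethanol library than in any control library, but 5 of the 8 markers had a negative and 3 a positive log2 fold change (median -0.025), and the groups overlapped for each of them. The abundant Calb2 and Cck were among the positive ones.

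Htr4, a Gs-coupled receptor of limbic and striatal neurons, spans chr18:57637013-57820317 on the plus strand (NCBI gene 25324) with 10 exon blocks. It was at 5.12, 8.05 and 5.76 CPM in controls and 5.13, 7.30 and 6.26 CPM after ethanol. Both libraries numbered 2 were high and both numbered 1 were low. The log2 fold change was -0.02 (SE 0.20, interval -0.48 to 0.44), the smallest of the family in size, and its interval corresponds to a ratio of ethanol to control from 0.718 to 1.36.

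Htr7, the remaining Gs-coupled member, had 0 counts in all 6 libraries and was not tested. The gene (NCBI gene 65032) lies at chr1:254547964-254671811 on the minus strand with 4 exon blocks and 3055 bp of exon. The annotation used for counting holds a further gene (NCBI gene 103694905) on an unplaced scaffold with the same 4 block lengths, which also had 0 counts in all libraries. Reads that align to several places had not been counted. Among 24548 annotated genes with 3 or more exon blocks, 350 were matched block for block by another gene, and 317 of these (90.6%) had 0 counts in all 6 libraries, against 3453 of 24198 unmatched genes (14.3%). The neighbouring gene Rpp30, 25436 bp away, had 1519 to 1760 counts. A count of 0 for Htr7 is therefore no measure of its absence from the amygdala, and the cause of the 0 was not tested.

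**Figure D2:**
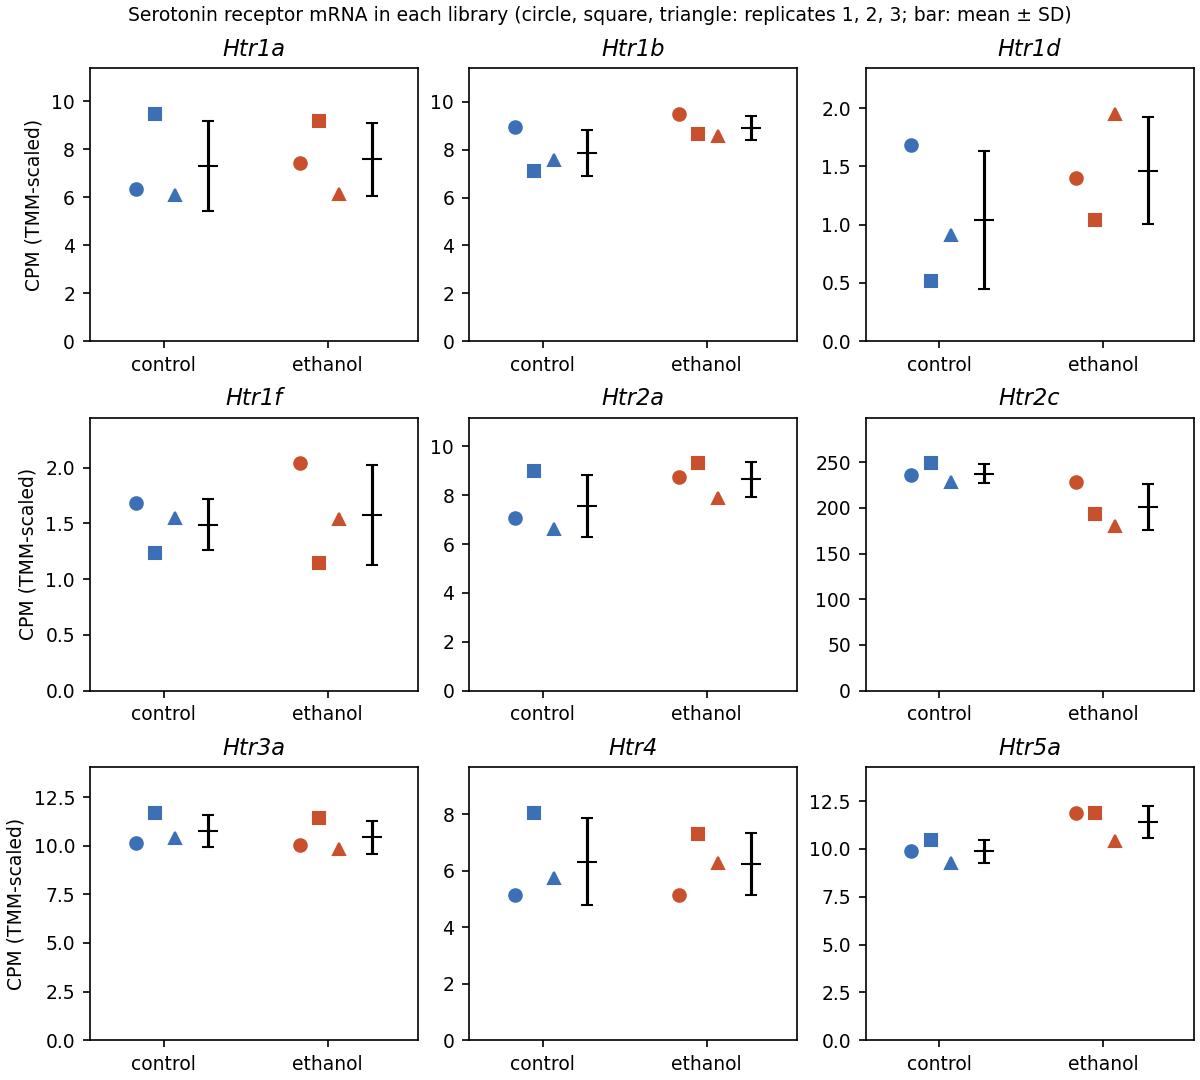
TMM-scaled CPM of the 9 detected receptors in each library, with circles, squares and triangles for replicates 1, 2 and 3 of control (blue) and ethanol (orange) and bars for the mean ± SD of each group. Each panel starts at 0 and has its own scale. Htr2c is the panel with 2 ethanol libraries below all controls, Htr5a has 2 above all controls, and Htr1d spreads from 0.521 to 1.95 CPM.

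The panels of values by library show that Htr1a, Htr2a, Htr3a, Htr4 and Htr5a, 5 of the 9, had the library numbered 2 (square) as the highest of both groups. For Htr5a, ethanol libraries 1 and 2 were nearly equal, at 11.87 and 11.89 CPM. With library size alone, ethanol library 1 of Htr5a was the higher, at 11.70 against 11.60 CPM. In edgeR's fit, ethanol was above control by 13.1%, 14.4% and 15.4% for Htr1b, Htr2a and Htr5a and below it by 15.5% for Htr2c. The largest estimate was that of the variable Htr1d, at 41.6%. Htr1f and Htr1a were at 5.92% and 3.49%, and Htr3a and Htr4 at -2.93% and -1.34%.

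**Figure D3:**
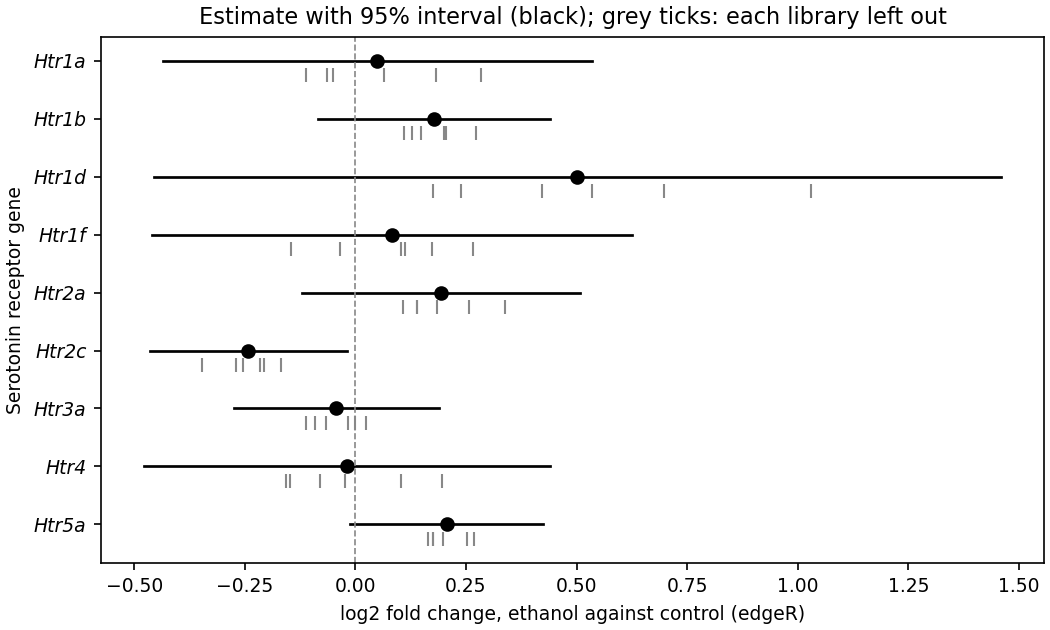
Log2 fold change of ethanol against control for each receptor in edgeR's fit, with the 95% interval as a black line and the 6 estimates made with 1 library left out as grey ticks. The interval of Htr2c, -0.46 to -0.02, is the only one of the 9 that leaves out 0, and the grey ticks of Htr1a, Htr1f, Htr3a and Htr4 fall on both sides of 0.

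The plot of fold changes shows how far single libraries moved each estimate. Leaving out 1 library at a time kept Htr2c between -0.35 and -0.17, Htr5a between 0.16 and 0.27, Htr1b between 0.11 and 0.27 and Htr2a between 0.11 and 0.34. Htr1d moved from 0.18 to 1.03, the lower value without control library 2 and the higher without control library 1.

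The make-up of the receptor mRNA was then followed within each library, since a share does not depend on the scaling between libraries. Here the family was taken with 4 further receptor genes, Htr2b, Htr3b, Htr5b and Htr6, and the shares were looked at after the values of Htr2c had been seen, so they are given without a test. Htr2c made up 64.2%, 62.5% and 65.1% of the summed CPM per kb in control libraries 1, 2 and 3 and 60.7%, 55.1% and 57.2% in ethanol libraries 1, 2 and 3. The share of Htr2c was lower in every ethanol library than in any control library. In level, 5.19% of all genes tested were separate in that direction, and no such rate was obtained for shares. Mean Htr2c was 49.9 ± 2.24 in controls and 42.2 ± 5.28 CPM per kb after ethanol (SD, n = 3 each), and all other receptors together were at 28.3 ± 2.87 and 30.9 ± 2.42 CPM per kb, and both pairs of groups overlapped. The Gi/Go-coupled receptors held 20.1% to 21.5% in controls and 23.8% to 26.3% after ethanol, the channel subunits 6.31% to 6.77% and 6.08% to 7.41%, and the Gs-coupled receptors, without counts for Htr7, 2.18% to 2.78% and 2.33% to 3.37%.

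**Figure D4:**
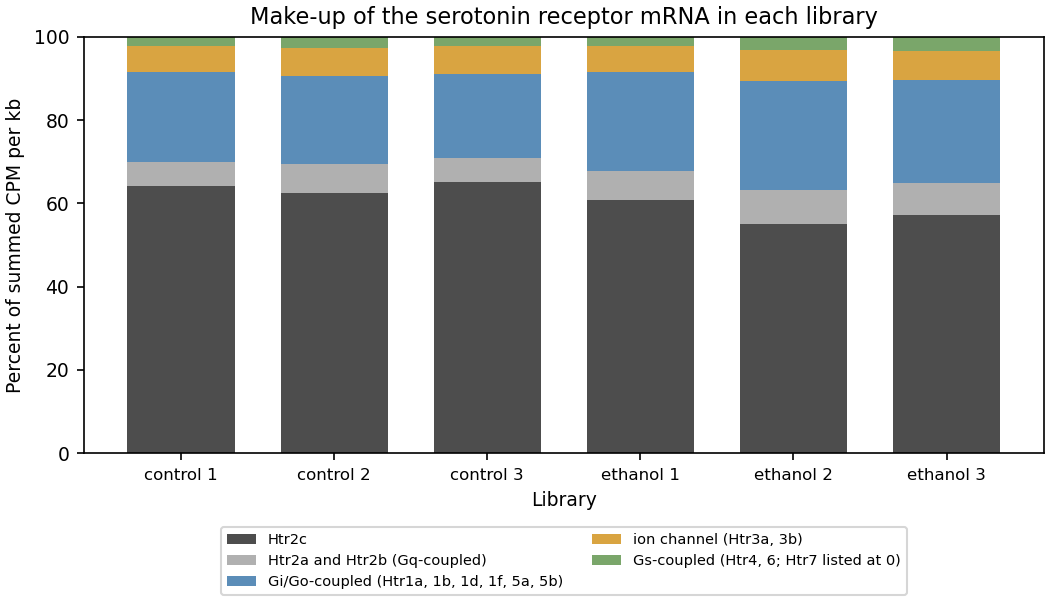
Percent of the summed CPM per kb of all serotonin receptor genes held by Htr2c, by the other Gq-coupled receptors and by the Gi/Go-coupled, ion channel and Gs-coupled receptors in each of the 6 libraries. Htr2c holds 62.5% to 65.1% in the controls and 55.1% to 60.7% after ethanol.

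The plot of shares shows Htr2c as the largest part of the receptor mRNA in every library, with the Gi/Go-coupled group as the next block. The shares sum to the whole, so the lower share of Htr2c and the higher share of the Gi/Go-coupled group are not independent of each other.

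The low-tier and most variable receptors were set beside the markers of the cell types in the dissection. Htr1d was highest in ethanol library 3 and control library 1 and lowest in control library 2. The summed level of 7 markers of striatal and central amygdala type GABA neurons was also highest in ethanol library 3 and lowest in control library 2, with 446, 285 and 347 CPM in controls and 455, 327 and 489 CPM after ethanol. This was not particular to that list. The hypothalamus and thalamus sum was 246, 128 and 196 CPM in controls and 161, 118 and 481 CPM after ethanol, highest in ethanol library 3 and next in control library 1. Of 14759 genes above a mean of 1 CPM, those whose centred log2 CPM came closest to Htr1d over the 6 libraries included Stab2 and LOC108349099, with root mean square distances of 0.201 and 0.217 against a median of 0.622.

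Htr1a was highest in control library 2 and ethanol library 2, where the pallial glutamatergic sum was also highest, at 913 and 1045 CPM. In the other libraries that sum was 494 and 661 CPM in controls 1 and 3 and 795 and 493 CPM in ethanol libraries 1 and 3. The dentate gyrus sum was also highest in control library 2 and ethanol library 2, at 60.9 and 53.2 CPM against 32.4 to 35.5 CPM in the others. The genes closest to Htr1a were gene 102549404, which had no symbol, Clstn2, which encodes a synaptic calsyntenin, and Garem1, at distances of 0.0462, 0.0481 and 0.0484 against a median of 0.283. For Htr1f they were gene 103690154, Krt77 and LOC102555035, at 0.0888, 0.0895 and 0.101 against a median of 0.289. With 6 libraries such distances describe these samples only, and the part of cell composition in the levels of Htr1d and Htr1a was not tested.

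**Figure D5:**
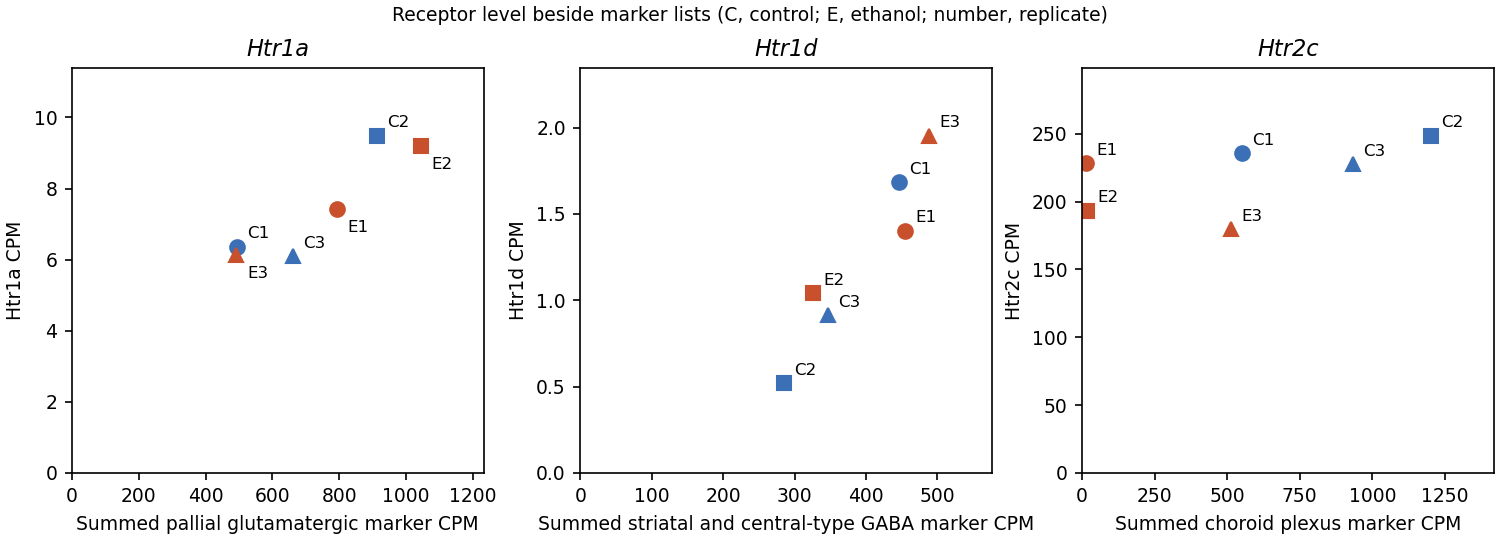
CPM of Htr1a, Htr1d and Htr2c in each library against the summed CPM of markers of pallial glutamatergic neurons, striatal and central amygdala type GABA neurons and choroid plexus, with C for control, E for ethanol and the replicate number. Htr1a and Htr1d are high in the libraries with high sums of the list plotted, and lists not plotted here peak in the same libraries. Htr2c is at 228.6 CPM in the library with 14.4 CPM of choroid plexus genes and at 180.0 CPM in the one with 514 CPM.

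In the plot of receptor levels beside marker sums, libraries of both groups mix along the axis for Htr1a and Htr1d. For Htr2c, ethanol libraries 1 and 2 lie at the far left, and ethanol library 3 lies close to control library 1 along the axis. Except ethanol library 1, the ethanol libraries lie below the controls in Htr2c. The markers of serotonergic neurons themselves were low, with a sum of 1.38 to 2.02 CPM in controls and 1.81 to 2.72 CPM after ethanol. Fev, which defines these neurons, had 0 to 1 counts, the serotonin transporter gene Slc6a4 had 2 to 45 counts with the 45 in ethanol library 2, and the synthesis gene Tph2 had 9 to 64 counts. Slc22a3, a transporter gene that other cells also express, held 0.730 to 1.61 CPM.

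Of 39 genes around the receptors, 36 were tested and 0 were called at an adjusted p below 0.2 in edgeR's quasi-likelihood test or by DESeq2, limma-voom or the likelihood ratio test. At an unadjusted p below 0.05 there was 1 of the 36, Htr6, which was higher, beside 1.57% of all genes that were higher and 4.15% in either direction. The list had 24 positive and 12 negative log2 fold changes and a median of 0.05. Among the 4 receptor genes outside the family described above, Htr2b had 1 to 3 and Htr3b 1 to 4 counts per library and were not tested. Htr6, a Gs-coupled receptor of striatal and limbic neurons, was at 3.15, 3.67 and 2.696 CPM in controls and 3.80, 4.17 and 4.55 CPM after ethanol. Every ethanol library of Htr6 was above every control library, the log2 fold change was 0.39 (SE 0.15, interval 0.05 to 0.74), and p was 0.0293 unadjusted and 0.9999 adjusted in edgeR's test. Htr5b, the relative of Htr5a, had a log2 fold change of 0.42 (SE 0.31, interval -0.31 to 1.14) at 1.08 ± 0.364 and 1.44 ± 0.456 CPM (SD, n = 3 each).

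The genes of serotonin synthesis, transport and breakdown gave 8 tested members with a median log2 fold change of 0.14. The vesicular monoamine transporter gene Slc18a2 had the largest estimate, 0.86 (SE 0.58), and it came from 5.94 CPM in ethanol library 2, where the other libraries held 0.997 to 2.41 CPM. The breakdown genes Maoa and Maob were at 73.9 ± 4.06 and 72.9 ± 2.12 CPM and at 90.7 ± 6.92 and 89.8 ± 7.79 CPM in controls and after ethanol (SD, n = 3 each), and their groups overlapped. The 14 G protein and phospholipase genes had a median of 0.04, and among them Gnao1, the Go subunit that the Gi/Go-coupled receptors use, had every ethanol library above every control library, with a log2 fold change of 0.11 (SE 0.07). The 12 partners and regulators had a median of 0.04. Of these, the receptor kinase gene Grk2 was above the controls in every ethanol library (log2 fold change 0.09, SE 0.06), although its groups overlapped with library size alone, and the arrestin gene Arrb2 was lower (log2 fold change -0.09, SE 0.05), while the editing enzyme genes Adar and Adarb1, which act on the Htr2c transcript, had estimates of 0.03 and 0.08 with overlapping groups. In all, 3 of the 36 tested genes were separate upward and 1 downward, beside 3.66% and 5.19% of all genes, and with library size alone 2 were separate upward and 1 downward, beside 2.29% and 7.04%.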

How the data were processed

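RNA-seq of rat amygdala was measured in 3 control and 3 ethanol libraries, each from the pooled RNA of 2 rats, with stranded mRNA libraries read as single ends of 100 nt. The authors deposited raw counts per gene. Per the file headers, featureCounts of Subread 1.6.3 counted reads on the reverse strand over exons of Rnor_6.0, without reads that aligned to several places. The submitters' processing notes also name STAR 2.7.0f, FastQC 0.11.8, R 3.6.2, edgeR and limma. Uncounted multi-mapping reads lower the values of duplicated genes.

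The analysis used edgeR 4.0.16 under R 4.3.3. The filter filterByExpr (minimum count 10, minimum total 15) left 18141 of 38445 genes. After TMM scaling, groups were compared by the quasi-likelihood test, and p-values were adjusted by the Benjamini-Hochberg method across the tested genes, with a threshold of 0.2. The SE was the absolute log2 fold change over the square root of F, and 95% intervals used the t distribution with the total degrees of freedom of the fit. Log2 CPM carried a prior count of 2. The 2-sided exact permutation test used 20 label swaps. Intervals and the floor of 3 counts rest on these libraries and on counting error, respectively. Depth was 62576504 to 70755739 counts per library. Groups came from the labelled treatment. The fit was tested on simulated data first.

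Symbols were matched to 29322 gene identifiers through a RefSeq table. The receptor genes, pathway genes and markers were chosen with earlier results of these data known. The named genes were all receptors, fixed lists of pathway genes and markers, and the 3 genes closest to each of the 3 most variable receptors, of which 1 gene is not reported here. Alternatives were DESeq2 1.42.0, limma-voom of limma 3.58.1, the likelihood ratio test, other scalings and filters, each library left out, and a replicate block. Chromatin and qPCR data of the study were not analysed here.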

Additional observations from a re-analysis of the deposited data

How the results depend on the processing

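None of the 9 receptors was called under any of the 14 alternative settings or at an adjusted p below 0.05. Across the genes tested, of which 0 were called in the analysis reported, the count at an adjusted p below 0.2 was 75 with the DESeq2 Wald test, 77 with the edgeR likelihood ratio test and 0 to 83 with 1 library left out, namely 83 without ethanol library 3, 4 without ethanol library 1 and 0 in the other 4 fits. The cause was not tested. Htr1b, Htr1d, Htr2a, Htr2c and Htr5a kept their direction under all 14 settings, with adjusted p from 0.608 to 1 for Htr2c and from 0.484 to 1 for Htr5a. With 1 library left out, the log2 fold change went from -0.11 to 0.28 for Htr1a, from -0.14 to 0.27 for Htr1f, from -0.11 to 0.023 for Htr3a and from -0.16 to 0.20 for Htr4, so these 4 changed sign. In the order of the levels, 4 of 9 genes kept their place without the length correction and 6 of 9 with controls only. The labels give both groups the replicate numbers 1 to 3, but same-numbered libraries hold different rats. Their deviations from the group means correlated by 0.0264, 0.388 and 0.211, so not every pair did. Differently numbered libraries averaged -0.11, but control library 1 with ethanol library 3 reached 0.305. Deviations from group means cancel within a group, so a positive same-number average goes with a negative average of the others. The -0.11 is therefore no separate comparison. With the replicate block, 0 receptors and 0 genes were called, Htr2c had a log2 fold change of -0.25, and the smallest adjusted p of the receptors was 0.793. Htr2b, Htr3b, Slc6a4 and Fev had too few counts to be tested. With the block, 2 receptors had an unadjusted p below 0.05.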
